A study of Mus musculus with 4 samples.

Results

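The 5 genes described here, Zmpste24, Lmnb1, Sun1, Syne2 and Syne3, encode parts of the nuclear lamina, its lamin A processing step and the linker of nucleoskeleton and cytoskeleton (LINC) complex. They were taken by gene symbol from a table of 1175 genes, and all 5 were found. Bulk RNA-seq was performed on bones of C57BL/6J mice at 13 weeks of age, labelled wild type for both genotype and Cre line. The Exercise group (2 libraries) had medium-intensity treadmill training from 8 weeks of age, lasting 5 weeks. The Sedentary group (2 libraries) had the same genotype and age and did not run. Bones were emptied of marrow by flushing and ground in liquid nitrogen before RNA was taken, so each library holds RNA of a whole tissue, in which fewer cells of a type and less RNA per cell cannot be told apart. The labels do not say that replicate libraries are from different mice, so p-values here cover the spread between libraries only, which may be technical.

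The nuclear lamina is a meshwork of lamin filaments under the inner nuclear membrane that gives the nucleus its stiffness and holds chromatin at its edge. Lamin A is made as a farnesylated precursor, prelamin A, which the membrane metalloprotease ZMPSTE24 (Z24) cleaves, and loss of this step leaves prelamin A in the membrane and causes premature aging in mice and humans. SUN proteins cross the inner membrane and nesprins, the products of the Syne genes, cross the outer membrane, and together they form the LINC complex, which carries force from the cytoskeleton to the lamina. The study used Z24 loss as its aging model and treadmill running as its mechanical stimulus, and this comparison asks how the genes of this force path stood in running and in resting bone.

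Every gene of the table had more counts on average in the Exercise libraries, by a median of 3.82 times and at the lowest 2.48 times the Sedentary mean. The rule that chose them is not given, and a full library total is unknown. The listed counts summed to 1160883 and 2680636 in the Exercise libraries (replicate 1, then replicate 2, here and throughout), against 594856 and 516963 in the Sedentary libraries. Values are therefore given as a share, the counts of a gene per 1000000 counts of the table, and a lower share can go with a higher count. Of the marker lists of bone cells, none of 7 osteoblast genes and 1 of 5 osteocyte genes (Sost) was among the genes analysed here. The bone cells of the labelled tissue could thus be checked on Sost alone, at shares of 786 and 696 in Exercise and 723 and 667 in Sedentary bone. Genes of blood-forming cells were also listed, although the marrow had been flushed out. Ighm, Epb42, Sptb, Csf3r and Padi4 had higher shares than Sost in every library. Cd22 had lower shares than Sost, and Pax5 and Rag1 lay on both sides of it.

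Zmpste24 and Lmnb1, the lamina genes, had lower shares in both Exercise libraries than in both Sedentary libraries, although their counts were higher. Zmpste24 (ENSMUSG00000043207.10, chromosome 4, 121059237 to 121098241, minus strand, mm10, with identifiers and positions from GENCODE M21 matched by symbol) had 1996 and 3454 counts in Exercise bone, against 1127 and 973 counts in Sedentary bone. Its share was 1719 and 1289 in Exercise and 1895 and 1882 in Sedentary bone, so the groups did not overlap and replicate 2 was the lower Exercise library. The means were 1504 ± 305 in Exercise and 1888 ± 8.79 in Sedentary bone (SD, n = 2 each), and edgeR gave a log2 share ratio of -0.33 ± 0.18 (SE, adjusted p = 0.467). Lmnb1 encodes lamin B1, a lamin that keeps its farnesyl group and is made in nearly all cells (ENSMUSG00000024590.8, chromosome 18, 56707813 to 56753424, plus strand). It had 2855 and 4683 counts in Exercise bone, against 1549 and 1446 counts in Sedentary bone. Its share was 2459 and 1747 in Exercise and 2604 and 2797 in Sedentary bone, again without overlap and again lowest in Exercise replicate 2. For Lmnb1 edgeR gave a log2 share ratio of -0.36 ± 0.20 (SE, adjusted p = 0.467). Neither ratio passed the study's thresholds, which ask for a log2 ratio beyond 0.25 in either direction together with an unadjusted p below 0.05. The study set these for DESeq2 fold changes. Here they were applied to ratios of shares among the listed genes, so passing or failing them is not the study's own call.

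Both lamina genes stood close to the lower edge of the table. By the ratio of mean counts, Exercise over Sedentary, Lmnb1 was the gene at rank 8 from the lowest of 1175 with 2.52 times, and Zmpste24 at rank 20 with 2.60 times. Only 0.255% of the genes had a lower log2 share ratio than Lmnb1, and 0.766% a lower one than Zmpste24. No gene with a ratio of mean counts under 2.48 was listed, so genes with a lower ratio than that were not analysed here.

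Syne3 and Syne2, the nesprin genes, had higher shares in both Exercise libraries, and Sun1 did not separate the groups. Syne3 encodes nesprin-3, which binds plectin and so ties the nucleus to intermediate filaments (ENSMUSG00000054150.12, chromosome 12, 104929933 to 105009809, minus strand). It had 380.81 and 1226.02 counts in Exercise bone, against 157.7 and 122.54 counts in Sedentary bone. Its share was 328 and 457 in Exercise and 265 and 237 in Sedentary bone, so both Exercise libraries lay above both Sedentary ones and replicate 2 was the higher. The mean share was 393 ± 91.4 in Exercise and 251 ± 19.8 in Sedentary bone (SD, n = 2 each). For Syne3 edgeR gave a log2 share ratio of 0.64 ± 0.22 (SE, unadjusted p = 0.0309, adjusted p = 0.365). Syne3 was thus the 1 member past the study's thresholds, and it did not pass adjustment. Of all listed genes, 24.4% had a higher log2 share ratio than Syne3 and 27.7% a higher one than Syne2.

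Syne2 encodes nesprin-2, a giant protein whose large form binds actin and whose tail anchors it to SUN proteins (ENSMUSG00000063450.14, chromosome 12, 75818134 to 76110926, plus strand). It had 313 and 1128 counts in Exercise bone, against 144 and 122 counts in Sedentary bone. Its share was 270 and 421 in Exercise and 242 and 236 in Sedentary bone. The groups did not overlap, and Exercise replicate 1 lay only a little above Sedentary replicate 1. For Syne2 edgeR gave a log2 share ratio of 0.53 ± 0.26 (SE, adjusted p = 0.456), short of the study's thresholds. Sun1, the inner membrane partner of the nesprins that also binds lamin A (ENSMUSG00000036817.14, chromosome 5, 139200637 to 139249840, plus strand), had 577.03 and 1696 counts in Exercise bone, against 323 and 279 counts in Sedentary bone. Its share was 497 and 633 in Exercise and 543 and 540 in Sedentary bone, so the Exercise libraries lay on either side of the Sedentary ones. For Sun1 edgeR gave a log2 share ratio of 0.06 ± 0.18 (SE, adjusted p = 0.858), and with DESeq2 size factors it was -0.05.

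**Figure D1:**
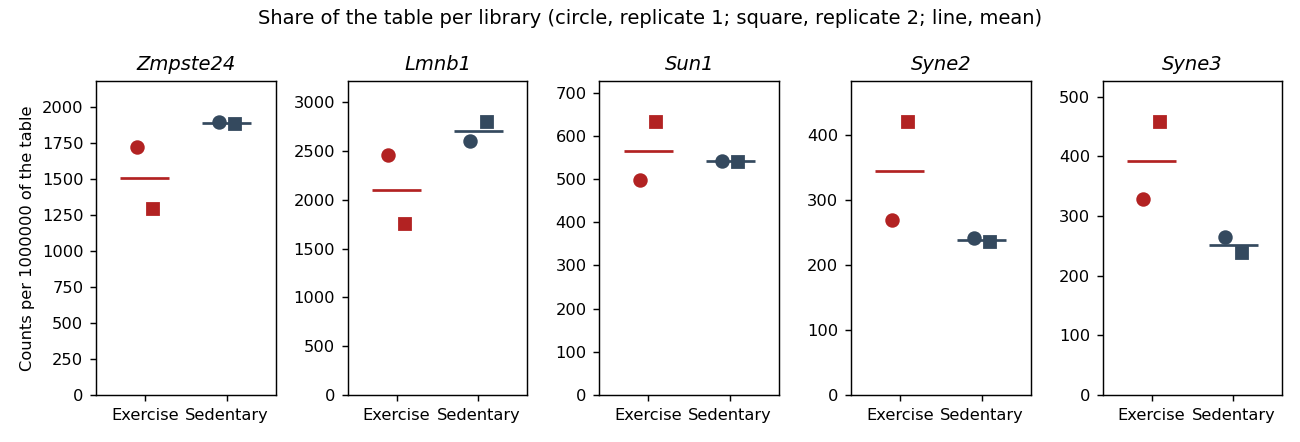
Share of each member, in counts per 1000000 counts of the table, in each library, with Exercise left of Sedentary; circles are replicate 1, squares replicate 2 and lines the group means. The Exercise points of Zmpste24 and Lmnb1 sit below the Sedentary points, those of Syne2 and Syne3 sit above them, and those of Sun1 lie at 497 and 633 around a Sedentary mean of 541.

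The sequences around the start sites of Zmpste24, Syne2 and Syne3 are shown because the nesprin genes had higher and Zmpste24 lower shares in both Exercise libraries. RefSeq promoters (GRCm38.p6, from 250 bases before to 50 bases after the start) were held for 4 of the 5 members. Capitals mark matches, on both strands, to the CCAAT box (CCAAT), the GC box (GGGCGG), the M-CAT element bound by TEAD factors (CATTCC) and the AP-1 site (TGANTCA). The first is the Zmpste24 window at chr4:121098161-121098460, minus strand, the second the Syne2 window at chr12:75818068-75818367, plus strand, and the third the Syne3 window at chr12:104998628-104998927, minus strand, which lies inside the longer GENCODE model of Syne3.
Zmpste24: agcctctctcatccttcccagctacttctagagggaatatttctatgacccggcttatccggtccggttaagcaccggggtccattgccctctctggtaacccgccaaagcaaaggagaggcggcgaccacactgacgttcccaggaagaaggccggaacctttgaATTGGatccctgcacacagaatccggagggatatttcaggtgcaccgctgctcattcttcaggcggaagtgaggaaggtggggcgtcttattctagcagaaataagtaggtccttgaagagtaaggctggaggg
Syne2: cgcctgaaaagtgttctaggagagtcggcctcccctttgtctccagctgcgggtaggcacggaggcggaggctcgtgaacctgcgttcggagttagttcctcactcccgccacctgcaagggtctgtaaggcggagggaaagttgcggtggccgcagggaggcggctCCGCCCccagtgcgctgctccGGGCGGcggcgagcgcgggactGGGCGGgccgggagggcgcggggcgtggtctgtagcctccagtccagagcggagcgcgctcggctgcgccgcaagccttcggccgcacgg
Syne3: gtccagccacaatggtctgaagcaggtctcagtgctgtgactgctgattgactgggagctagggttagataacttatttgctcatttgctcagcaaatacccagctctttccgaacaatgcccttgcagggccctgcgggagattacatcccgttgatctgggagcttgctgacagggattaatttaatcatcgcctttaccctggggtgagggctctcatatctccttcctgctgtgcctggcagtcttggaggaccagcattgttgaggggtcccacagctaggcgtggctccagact
The Syne2 window had 71% G and C, 35 CpG dinucleotides and 3 GC boxes. That of Syne3 had 53% G and C, 5 CpG dinucleotides and no match to any of the 4 motifs. The Zmpste24 window had 54% G and C, 13 CpG dinucleotides and 1 CCAAT box, on the opposite strand. Over all 32851 RefSeq promoters the medians were 52.7% G and C and 7 CpG dinucleotides, and a CCAAT box was found in 37.4%, a GC box in 35.7%, an M-CAT element in 14.7% and an AP-1 site in 7.81% of them. No M-CAT or AP-1 letters were found in the 3 windows shown. The nesprin genes thus lay on the same side in share, while the windows shown for them differed in G and C content, CpG number and GC boxes. Counts pool all transcripts of a gene, so they do not show which start was used.

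In all, 3 of the 5 members had a higher share in Exercise bone, against 64.1% of all listed genes. For 2 members (Syne2 and Syne3) both Exercise libraries had a higher share than either Sedentary library, against 36.0% of all listed genes, and for 2 members (Zmpste24 and Lmnb1) a lower one, against 16.1%. At the study's thresholds 1 member passed with a higher share, where 11.3% of the listed genes did, and no member with a lower share, where 0.0851% did. None of the 5 members had an adjusted p under 0.05 in edgeR, where 0.340% of the listed genes did; 1 member had an unadjusted p under 0.05. With the DESeq2 Wald test no member passed the study's thresholds, where 13.3% of the listed genes did, or an adjusted p of 0.05, where 3.06% did. With limma-voom no member passed them either, where 5.79% of the listed genes passed the study's thresholds and 0.00% an adjusted p of 0.05. Over all listed genes 133 passed with a higher and 1 with a lower share, and with DESeq2 size factors 121 and 21. The median log2 share ratio of all listed genes was 0.14 with column totals and 0.04 with DESeq2 size factors, so Syne2 and Syne3 lay above and Zmpste24 and Lmnb1 below the median gene with either scaling.

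The 2 Exercise libraries did not carry these differences equally. Leaving out Exercise replicate 1 gave log2 share ratios of -0.55 for Zmpste24, -0.63 for Lmnb1, 0.22 for Sun1, 0.81 for Syne2 and 0.86 for Syne3. Leaving out Exercise replicate 2 gave -0.14, -0.13, -0.12, 0.17 and 0.38 in the same order. All members but Sun1 kept their direction. Without replicate 1, 4 members passed the study's thresholds and an adjusted p of 0.05, but so did 55.3% and 55.4% of all listed genes, in a fit that holds a single Exercise library and takes its spread from the Sedentary pair. Without replicate 2, Syne3 alone of the members passed the study's thresholds, where 30.7% of the listed genes did. Syne3 did not pass with the DESeq2 Wald test, with limma-voom, or when either Sedentary library was left out, where 4.0% (without replicate 1) and 3.74% (without replicate 2) of the listed genes passed.

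**Figure D2:**
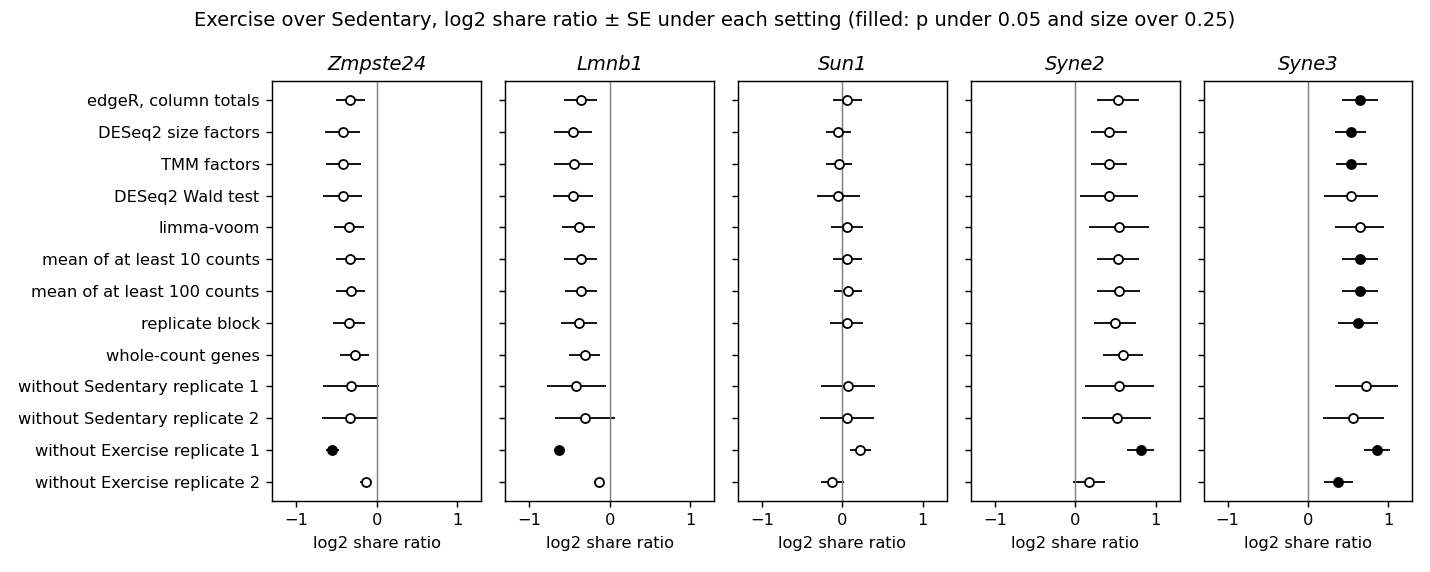
Log2 share ratio, Exercise over Sedentary, with its SE for each member (columns) under each setting (rows); filled points passed an unadjusted p of 0.05 with an absolute log2 ratio over 0.25. Points of Zmpste24 and Lmnb1 stay left of 0, those of Syne2 and Syne3 right of 0, and those of Sun1 fall on both sides; Sun1 and Syne3 have no point in the whole-count row because their counts are not whole.

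A ratio of a gene to another gene in the same library needs no library total, so the 10 pairs of members were compared in this way. Nesprin transcripts were more abundant relative to lamina transcripts in both Exercise libraries. There were 0.133 and 0.262 counts of Syne3 per count of Lmnb1 in Exercise bone, against 0.102 and 0.0847 in Sedentary bone. For Syne2 over Lmnb1 the ratios were 0.110 and 0.241 in Exercise bone, against 0.0930 and 0.0844 in Sedentary bone. In this pair Exercise replicate 1 lay only a little above Sedentary replicate 1. Counting error alone gave these libraries SDs of 0.086 and 0.126 in log2 units. The mean log2 ratio was 1.01 higher in Exercise for Syne3 over Lmnb1 and 0.88 higher for Syne2 over Lmnb1, and 0.97 and 0.84 higher for the same genes over Zmpste24. The size of these differences rested on Exercise replicate 2. With each library left out in turn they ranged over 0.52 to 1.49 for Syne3 over Lmnb1, 0.31 to 1.44 for Syne2 over Lmnb1, 0.52 to 1.42 for Syne3 over Zmpste24 and 0.31 to 1.37 for Syne2 over Zmpste24, lowest without Exercise replicate 2 and highest without Exercise replicate 1. The nesprin genes also stood higher relative to their partner Sun1. Syne3 over Sun1 was 0.660 and 0.723 in Exercise bone and 0.488 and 0.439 in Sedentary bone, and Syne2 over Sun1 was 0.542 and 0.665 in Exercise bone and 0.446 and 0.437 in Sedentary bone. These 2 pairs were closer between the Exercise libraries than the pairs with a lamina gene.

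The ratio of the lamina genes to each other overlapped between the groups, and so did that of the nesprin genes. Zmpste24 over Lmnb1 was 0.699 and 0.738 in Exercise bone and 0.728 and 0.673 in Sedentary bone, with overlapping groups and a mean log2 difference of 0.04. Syne3 over Syne2 was 1.22 and 1.09 in Exercise bone and 1.10 and 1.004 in Sedentary bone, a mean log2 difference of 0.13, also with overlap. Sun1 over Lmnb1 overlapped too, at 0.202 and 0.362 in Exercise bone and 0.209 and 0.193 in Sedentary bone. Sun1 over Zmpste24 was 0.289 and 0.491 in Exercise bone and 0.287 in each Sedentary library, and the gap between Exercise replicate 1 and the Sedentary libraries was smaller than the counting error. Summed over genes, there were 0.262 and 0.498 counts of the 3 LINC genes per count of the 2 lamina genes in Exercise bone, against 0.233 and 0.216 in Sedentary bone.

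In each pair the gene with the higher log2 share ratio was put on top, so the direction of the differences was set by that choice. In 7 of the 10 pairs the groups did not overlap, against 50.2% of all pairs of the 1113 listed genes with counts in every library. Each of these 7 gave p = 0.333 in the exact permutation test (two-sided), the smallest that 2 against 2 libraries can give, and 0.476 after Benjamini-Hochberg adjustment over the 10 pairs, so the design cannot reach p = 0.05 here. The pairs share genes and are not independent of each other.

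**Figure D3:**
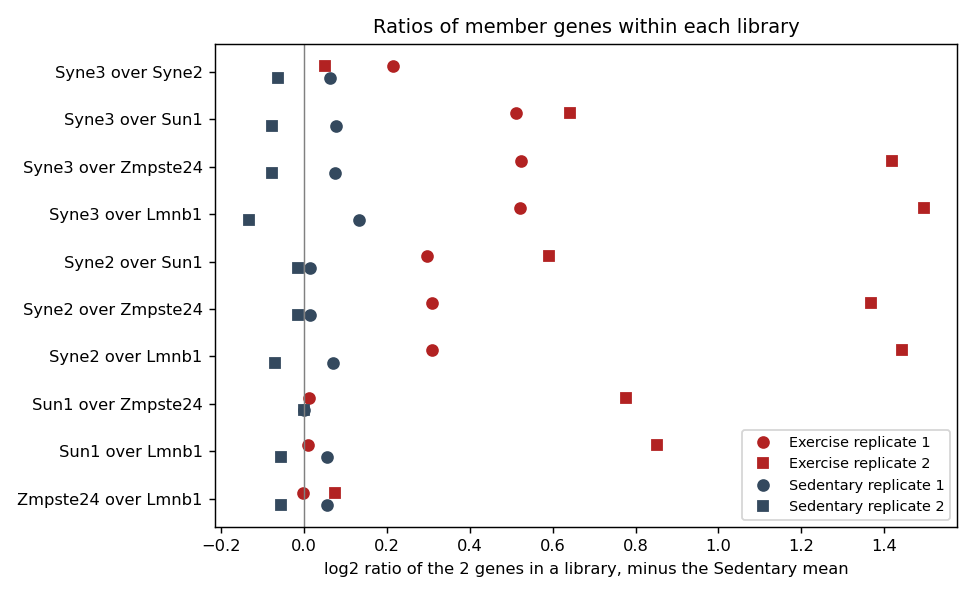
Log2 ratio of 2 member genes within each library, minus the mean of the Sedentary libraries, for the 10 pairs; red points are Exercise and dark points Sedentary libraries, circles replicate 1 and squares replicate 2. Pairs of a nesprin gene over a lamina gene lie to the right in Exercise, replicate 2 furthest, while Zmpste24 over Lmnb1 stays near 0 in all 4 libraries.

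The Exercise libraries differed from each other in these genes by more than counting error. The log2 share of replicate 2 over replicate 1 in Exercise bone was -0.42 for Zmpste24, -0.49 for Lmnb1, 0.35 for Sun1, 0.64 for Syne2 and 0.48 for Syne3. Counting error alone would give an SD between 0.03 (Lmnb1) and 0.09 (Syne2), and the differences were 5.01 to 14.4 times that SD. In Sedentary bone the same values were -0.01, 0.10, -0.01, -0.04 and -0.16, at most 1.96 times the counting SD. The lamina genes and the LINC genes therefore lay on opposite sides within the Exercise pair, with the median gene at 0.15. Such differences were common in this pair, since 44.7% of the 1143 genes averaging 20 or more counts differed by more than Zmpste24 did and 27.4% by more than Syne2 did. Exact (Clopper-Pearson) 95% intervals of a single share reached at most 6.48% of its value for Zmpste24, 5.28% for Lmnb1, 12.4% for Sun1, 19.4% for Syne2 and 19.3% for Syne3, for counting error only. For every member the intervals of Exercise replicate 1 and Sedentary replicate 1 overlapped. For Lmnb1 they ran over 2370 to 2551 and 2476 to 2737. Against Sedentary replicate 2, the intervals of Exercise replicate 1 overlapped for Zmpste24, Sun1 and Syne2. They did not overlap for Lmnb1 (2655 to 2945 in Sedentary replicate 2) or for Syne3 (296 to 363 against 198 to 284).

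**Figure D4:**
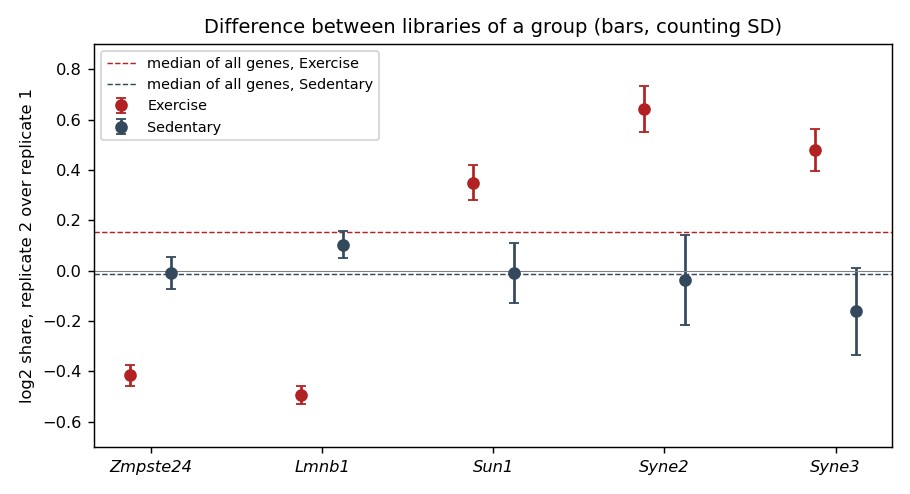
Log2 share of replicate 2 over replicate 1 for each member, in Exercise and in Sedentary bone, with bars for the SD that counting error gives and dashed lines for the median of all genes averaging 20 or more counts. The Exercise values run between -0.49 for Lmnb1 and 0.64 for Syne2, while the Sedentary values stay between -0.16 and 0.10.

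Per kilobase of exon, Lmnb1 was the highest member and Syne2 the lowest in all 4 libraries, and the order Lmnb1, Zmpste24, Sun1, Syne3, Syne2 was the same in each. Lmnb1 had a level of 830 and 590 counts per 1000000 per kilobase in Exercise and 879 and 944 in Sedentary bone. Zmpste24 had 241 and 180 in Exercise and 265 and 263 in Sedentary bone. By exon length, Sun1 and Syne3 were neighbours that did not differ beyond their spread in Exercise bone, at 74.4 ± 12.6 and 70.8 ± 16.5. They were apart in Sedentary bone, at 71.3 ± 0.307 and 45.3 ± 3.58 (SD, n = 2 each). Per kilobase of coding length they were apart in Exercise bone too, at 181 and 231 for Sun1 and 112 and 156 for Syne3. Their nearness in Exercise bone thus depended on the length used. Syne2, with 26726 bases of exon, had 10.1 and 15.7 in Exercise and 9.06 and 8.83 in Sedentary bone. Its 17 annotated transcripts differ greatly in length and were counted together, so its level per kilobase rests on the annotation used.

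The genes whose shares over the 4 libraries were most like those of a member were found by the distance between centred log2 shares, among 1142 other genes averaging 20 or more counts. They were Rasa3, Nadk and Cdc25b for Zmpste24 (distances 0.0371 to 0.0399), and Ewsr1, Mxd1 and Polr2a for Lmnb1 (0.0349 to 0.0842). For Sun1 they were Svil, Ppil4 and Baz2a (0.0344 to 0.0491), for Syne2 Tirap, Pkd1 and Dcp1a (0.0553 to 0.0748), and for Syne3 Iqsec1, Pstpip2 and Prpf8 (0.0675 to 0.0824). Among members, Zmpste24 was at rank 11 for Lmnb1, and Lmnb1 at rank 24 for Zmpste24 (0.104). Syne2 was at rank 17 for Syne3, and Syne3 at rank 27 for Syne2 (0.196). By contrast, Lmnb1 was at rank 978 for Syne3, and Syne3 at rank 854 for Lmnb1 (1.23). With 4 libraries such likeness is a description only.

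Around the members, 12 further genes of 7 lists of nuclear envelope components and partners were in the table, of 114. Of the 12, 4 had a higher and 8 a lower share in Exercise bone, with a median log2 share ratio of -0.11 against 0.14 for all listed genes. None of them passed the study's thresholds or an unadjusted p of 0.05 in edgeR, with the DESeq2 Wald test or with limma-voom. In the list of lamins and prelamin processing, 3 of 9 genes were in the table, and besides the members this was Icmt, the methyltransferase that modifies the cut end of farnesylated prelamin A. Icmt had shares of 383 and 392 in Exercise and 335 and 366 in Sedentary bone (log2 0.15 ± 0.16). The LINC list held no gene in the table besides the 3 members, of 11. Sun2, Syne1 and Lmna were not analysed here.

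The cytoskeletal partners of LINC gave 4 of 17 genes. Plec encodes plectin, the partner of nesprin-3, and its shares of 1094 and 1263 in Exercise lay above those of 926 and 963 in Sedentary bone (log2 0.32 ± 0.15, edgeR adjusted p = 0.455). Macf1, a crosslinker of actin and microtubules, had 1332 and 2900 in Exercise and 1726 and 1613 in Sedentary bone, so that Exercise replicate 2 alone was high. Its log2 share ratio was 0.34 ± 0.36, and it turned to -0.33 when Exercise replicate 2 was left out. Ndel1, a dynein regulator, had 733 and 629 in Exercise and 805 and 874 in Sedentary bone (log2 -0.30 ± 0.16). Pcnt, which encodes the centrosome protein pericentrin, stood at -0.14 ± 0.14.

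No gene of the remaining lists passed the test. The inner membrane gene Nemp1 had a log2 share ratio of -0.13 ± 0.17, and Prr14, whose product tethers heterochromatin to the lamina, of -0.08 ± 0.18, which turned to 0.09 without Exercise replicate 2. Of the nuclear pore genes, Nup214 stood at 0.17 ± 0.15 and Nup188 at -0.07 ± 0.17 (2 of 30 genes in the table). The transport receptor genes Tnpo3, Xpo4 and Ipo9 stood at -0.24 ± 0.13, -0.16 ± 0.16 and -0.14 ± 0.16 (3 of 27 genes in the table). Without Sedentary replicate 1, Nup188 turned to 0.06 and Ipo9 to 0.0042, so that 6 of the 12 genes had a higher share.

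**Figure D5:**
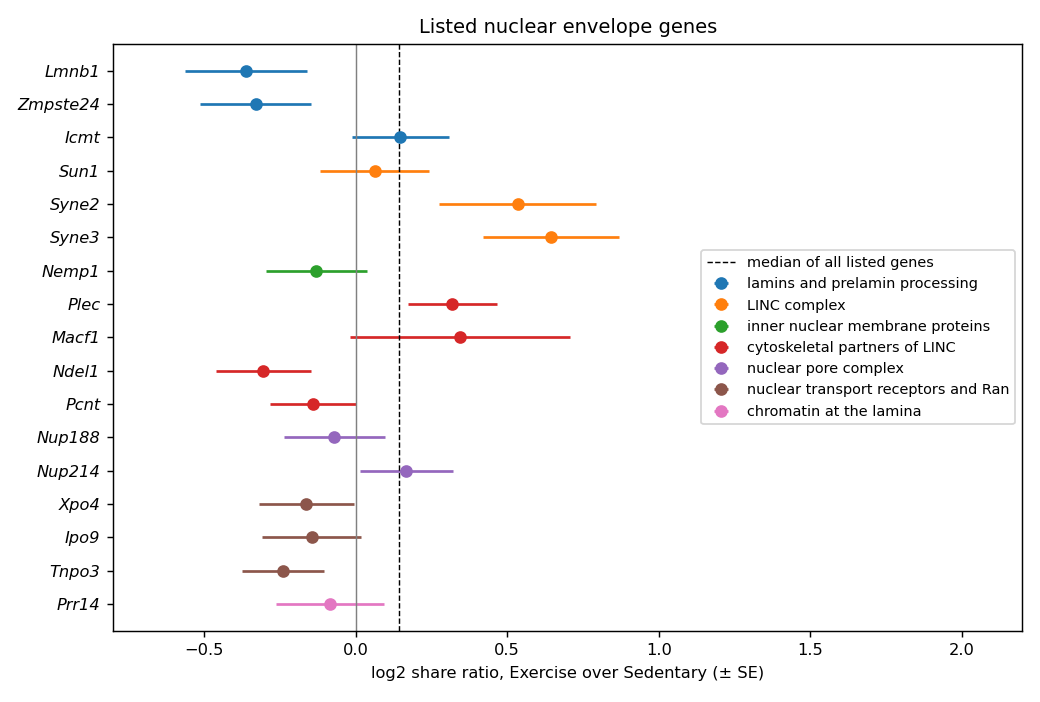
Log2 share ratio, Exercise over Sedentary, with its SE for the 17 listed genes of the nuclear envelope lists, coloured by list; the solid line is 0 and the dashed line the median of all listed genes, 0.14. Syne2 and Syne3 lie furthest to the right at 0.53 and 0.64, and Lmnb1, Zmpste24 and Ndel1 furthest to the left.

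The summed shares of some marker lists of other cells separated the groups, although not all of their genes did. Of all listed genes, 36.0% had a higher and 16.1% a lower share in both Exercise libraries, so such separation was common. Of 6 proliferation genes, 4 were listed (Bub1b, Cdca8, Hmmr and Kif23) and had a summed share of 4492 and 4646 in Exercise and 5175 and 5021 in Sedentary bone, lower in both Exercise libraries as for the lamina genes. Of these, Kif23 and Cdca8 were lower in both Exercise libraries, while Hmmr (889 and 1328 in Exercise, 1315 and 1181 in Sedentary bone) and Bub1b (1165 and 1114 in Exercise, 1157 and 1048 in Sedentary bone) overlapped. The 2 listed of 7 erythroid genes (Epb42 and Sptb) summed to 7141 and 7636 in Exercise and 8763 and 8974 in Sedentary bone, also lower, as was each of the 2 genes. The 2 listed of 8 neutrophil genes (Csf3r and Padi4) summed to 6978 and 5669 in Exercise and 5436 and 5334 in Sedentary bone. Csf3r was higher in both Exercise libraries as for the nesprin genes, whereas Padi4 overlapped, at 2240 and 1487 in Exercise and 1666 and 1592 in Sedentary bone. The 4 listed of 8 B lymphocyte genes (Ighm, Pax5, Rag1 and Cd22) summed to 42592 and 11405 in Exercise and 22074 and 22288 in Sedentary bone, and this sum was mostly Ighm (41148 and 9160 in Exercise, 20194 and 20392 in Sedentary bone). Rag1 had 334 and 889 in Exercise and 578 and 503 in Sedentary bone, so it was high in the other Exercise library, and Pax5 and Cd22 were lowest in Exercise replicate 1 and overlapped in replicate 2. The part of these cells in the shares of the members was not tested.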

How the data were processed

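Estimated counts per gene were deposited in 1 table for 4 bone libraries, 2 per group, each column matched to a library by name. Libraries were made by a modified Smart-seq2 method with UMIs. Reads were trimmed, aligned to mm10 with STAR, counted with HTSeq and collapsed by UMI. The sources used here do not give tool versions, the annotation, the use of strand, the rule that selected the 1175 genes or the step that left fractional counts (in Sun1 and Syne3 among the members). Before deposit, the authors had not scaled the counts to depth.

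Estimated counts were rounded and fitted over all 1175 genes by quasi-likelihood in edgeR 4.0.16 (R 4.3.3), Exercise over Sedentary, two-sided, no covariates, scaled to column totals, with Benjamini-Hochberg adjustment over the table. Standard errors came from dividing the size of a log2 ratio by the root of its F statistic. The fit was tested on simulated data with less spread between libraries and larger changes than found here. That test does not show how the fit performs at the spread and changes of the members. Alternatives were DESeq2 1.42.0 size factors and Wald test, TMM factors, limma-voom (limma 3.58.1), low-count filters, a replicate block, whole-count genes and leaving out each library. The rule for named genes took the members, up to 4 listed genes with the highest mean count of each pathway list, genes past the thresholds and the 3 nearest patterns of each member. The members and lists were chosen with earlier results of these data known. Distances used log2 of the share plus 1. Coordinates and exon lengths are from GENCODE M21 (GRCm38, the mm10 assembly). In it Zmpste24 and Syne2 contain small RNA genes on their strand and Sun1 overlaps a gene on the other strand, none of them in the table. Further steps used matplotlib 3.10.9, SciPy 1.17.1, pandas 2.3.3 and Python 3.11.15.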

Additional observations from a re-analysis of the deposited data

How the results depend on the processing

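Leaving out each library moved the log2 share ratios between -0.55 and -0.14 for Zmpste24, -0.63 and -0.13 for Lmnb1, -0.12 and 0.22 for Sun1, 0.17 and 0.81 for Syne2, and 0.38 and 0.86 for Syne3. Sun1 turned from 0.06 to -0.048 with DESeq2 size factors, -0.042 with TMM factors and -0.048 with the DESeq2 Wald test. The median log2 share ratio of all listed genes also fell, from 0.14 to 0.035, 0.042 and 0.035 in the same order. The cause of the turn was not tested. Syne3 did not pass the study's thresholds with the DESeq2 Wald test (0.53) or limma-voom (0.65), nor without Sedentary replicate 1 (0.72) or Sedentary replicate 2 (0.57). Members past those thresholds, 1 in edgeR, were 0 with the Wald test, with limma-voom and among whole-count genes, which do not hold Syne3, and 0 to 4 with each library left out. Members with an adjusted p under 0.05, 0 in edgeR, were also 0 to 4, with the 4 of both counts found without Exercise replicate 1, where 650 of 1175 genes passed the thresholds and 651 had such an adjusted p. Members with a higher share, 3 in edgeR, were 1 of the 3 whole-count members and 2 to 3 with each library left out. Of the 12 other nuclear envelope genes, 0 passed in edgeR and 0 to 5 with each library left out (5 without Exercise replicate 1, and 1 without Exercise replicate 2, where 361 of 1175 genes passed), and 4 had a higher share, against 2 of 5 among whole-count genes. The log2 ratio of Zmpste24 over Lmnb1 ranged over -0.019 to 0.094 when single libraries were dropped, and the other 9 pairs kept their direction. The replicate block changed no call of a member: Syne3 stood at 0.62 and passed the thresholds (adjusted p = 0.458). Same-numbered libraries did not deviate together (correlation across 1143 genes -0.09), so the numbers were not taken as pairs. Neither low-count filter nor a change of exon to coding length moved a call or the order of levels. Since full library totals are unknown, a direction holds only within the table.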
